A study of Mus musculus with 10 samples.

Results

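Fatty acids are broken down by beta-oxidation in peroxisomes and in mitochondria, and the genes described here are 41 genes of these routes. They were chosen by name, by taking every array probe set annotated with exactly 1 gene symbol that was on the list. This gave 77 of the 45037 probe sets of the array, for 41 of the 18193 genes that have such a probe set. By the place where their proteins are known to work, 11 genes serve peroxisomal metabolism, 3 serve both organelles, 9 build the peroxisome, 17 serve mitochondrial oxidation and 1, Ppara, encodes a nuclear receptor. Crot, which encodes peroxisomal carnitine octanoyltransferase, was set at the centre.

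Each of 10 RNA samples was the liver of 1 mouse fetus taken on embryonic day 14.5, and 5 fetuses were Zfp36l2 knockout (KO) and 5 wild type (WT). All were of a mixed b6 and 129 background, so each genotype holds several fetuses of mixed strain. How the Zfp36l2 allele was made is not given in the sources used here. The product of Zfp36l2 is a relative of tristetraprolin that attaches to AU-rich stretches of mRNAs and speeds their breakdown, and the design asks which transcripts differ without it.

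Peroxisomes shorten very long and branched fatty acids and bile acid precursors, and their oxidases make hydrogen peroxide that catalase removes. The shortened chains leave as carnitine esters, made by CROT and CRAT. Mitochondria finish the oxidation after import of such esters through the carnitine carrier SLC25A20 and CPT2. PPAR alpha, a nuclear receptor for fatty acids, drives many of these genes in the adult liver. The liver of this fetal age is mainly a blood-forming organ, with hepatoblasts among a larger number of blood cells.

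Zfp36l2 was low in every library labelled KO, at 82.3 to 109 normalized intensity units, against 389 to 596 in WT livers (log2 difference -2.08 ± 0.13, SE, limma adjusted p = 1.97e-05). Over the array, limma called 9 of 12741 genes, or 0.0706%, 1 higher in KO livers (0.00785%) and 8 lower (0.0628%). That split belongs to the settings used here: it was 10 higher and 11 lower with the replicate number as a block, 20 and 22 with values under 16 set to 16, and 58 and 18 without WT replicate 5. The liver markers Alb and Afp were among the brightest probe sets and averaged 15063 ± 949 and 16287 ± 366 in KO livers, against 15407 ± 349 and 16358 ± 247 in WT livers (SD, n = 5 each). The summed intensity of the 14 tested hepatocyte markers (of 16 listed) ran from 89822 to 106859 in KO livers and from 90868 to 103492 in WT livers. This sum is made up mostly of the brightest probe sets, Afp and Alb among them, which lie at the top of the array's range. Of the 14 markers 10 were positive, with a median log2 difference of 0.05. An unadjusted p under 0.05 was seen for 3 (Fgb 0.51, Hnf4a 0.26 and Krt8 0.16), with none called. Over all genes tested, 5.31% were higher and 5.02% lower in KO livers at that p. The summed intensity of the 10 tested megakaryocyte markers (of 11) ran from 1717 to 2793 in KO livers and lay below every WT liver, at 4059 to 5898. All 10 were negative (median -1.14) with an unadjusted p under 0.05, and 7 were without overlap, against 1.46% of all genes lower without overlap. Of them 3 (Pf4, Ppbp and Plek) were called lower, against 0.0628% of all genes. For the 13 tested macrophage markers (of 14) the sum ran from 5942 to 7258 in KO livers and from 3094 to 6984 in WT livers. For the 11 tested erythroid markers (of 15) it ran from 29710 to 34069 in KO livers and from 31127 to 40060 in WT livers. All 13 macrophage markers were positive (median 0.42), 7 with an unadjusted p under 0.05 and 1, Fcgr3, without overlap. Of all genes 1.37% were higher without overlap. Of the 11 erythroid markers 10 were negative (median -0.24), 8 with such a p and 3 without overlap. None was called in either list. The summed neutrophil markers (10 of 11) ran from 14162 to 26777 in KO livers and from 6348 to 28016 in WT livers. Of these markers 8 were positive and 2 negative (median 0.84), and 6 were higher with an unadjusted p under 0.05, with none called. The endothelial (9 of 9), stellate (8 of 9) and gut (3 of 8) sums also overlapped. Of the 3 gut markers 2 were positive and 1 negative. Among them Cela1 was higher in KO livers without overlap (log2 difference 0.81, limma adjusted p = 0.335). Of 10 heart and muscle markers 6 were left out as dim, among them Myh6 and Tnnt2. The other 4 summed to 78.8 to 99.4 in KO livers and 50.7 to 77.3 in WT livers, without overlap. These 4 were dim too, with genotype means of 2.94 to 27.2, where the array median was 22.7. The part of these cell types in any result below was not tested, and in whole livers fewer cells of a type and less RNA per cell cannot be told apart.

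The members with an unadjusted p under 0.05 at their brightest probe set were Crot, Slc27a2 and Pex7. Of these 3, the 250 bases before the transcription start are shown here, 5′ to 3′ on the gene's strand. They come from RefSeq on build GRCm38.p6, at chr5:8997147-8997396 (minus strand) for Crot, chr2:126552774-126553023 (plus strand) for Slc27a2 and chr10:19907675-19907924 (minus strand) for Pex7. Capitals mark the GC box GGGCGG, the CCAAT box CCAAT and the nuclear receptor half-site AGGTCA, each searched on both strands.
Crot: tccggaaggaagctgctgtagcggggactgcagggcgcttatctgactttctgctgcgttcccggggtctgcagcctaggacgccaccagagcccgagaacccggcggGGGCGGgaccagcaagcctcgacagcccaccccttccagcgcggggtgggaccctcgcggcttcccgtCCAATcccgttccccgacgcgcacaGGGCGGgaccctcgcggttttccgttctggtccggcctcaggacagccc
Slc27a2: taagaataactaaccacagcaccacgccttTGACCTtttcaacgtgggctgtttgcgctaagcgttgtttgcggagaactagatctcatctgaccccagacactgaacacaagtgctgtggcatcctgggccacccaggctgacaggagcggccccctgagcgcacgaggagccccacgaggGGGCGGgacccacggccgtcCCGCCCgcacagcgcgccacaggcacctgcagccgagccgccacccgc
Pex7: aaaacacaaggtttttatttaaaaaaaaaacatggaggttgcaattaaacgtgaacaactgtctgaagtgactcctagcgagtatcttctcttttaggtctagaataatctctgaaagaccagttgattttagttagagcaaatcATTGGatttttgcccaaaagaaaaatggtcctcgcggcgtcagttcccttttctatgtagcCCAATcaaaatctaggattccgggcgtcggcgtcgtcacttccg
The Crot stretch holds 2 GC boxes and 1 CCAAT box and no half-site. The Slc27a2 stretch holds 2 GC boxes, 1 on each strand, and 1 half-site on the reverse strand, while the Pex7 stretch holds 2 CCAAT boxes, 1 on each strand. GC content was 69.6% for Crot, 64% for Slc27a2 and 40% for Pex7.

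Such a stretch was at hand for 35 of the 41 genes. These genes have 40 such stretches. GC boxes stood in 25 of the 40, against 32.7% of 32851 promoters of the same length, and CCAAT boxes in 15, against 33.8%. Half-sites stood in 7 of the 40 (Acadm, Acadvl, Cat, Cpt1a, Echs1, Scp2 and Slc27a2), against 14% of all promoters. The direct repeat of 2 half-sites with 1 base between them, to which PPAR alpha can bind, was searched on both strands and stood in none of the 40 and in 0.0335% of all promoters. These are matches of letters in this window and say nothing of binding.

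Crot was higher in every KO liver than in any WT liver. Its normalized intensity was 733, 782, 769, 759 and 818 in KO livers, against 601, 555, 628, 520 and 528 in WT livers. Every KO liver stood above the highest WT liver, replicate 3, and the spread was small, with a coefficient of variation of 4.04% in KO livers and 8.26% in WT livers. The means were 772 ± 31.2 and 566 ± 46.8 in KO and WT livers (SD, n = 5 each), a 1.37-fold difference. On the log2 scale Crot rose by 0.45 ± 0.07 (SE; 95% interval 0.31 to 0.59; limma adjusted p = 0.0286). The exact permutation p, two-sided, was 0.00794, the smallest that 5 against 5 livers can give.

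The sample titles number the livers 1 to 5 in each genotype, and the labels do not say what the numbers share. Over probe sets with a mean intensity over 100, each liver correlated best with the same-numbered liver of the other genotype. That minimum was chosen after seeing the data, and over all probe sets tested same-numbered livers correlated at 0.031 at most. With the replicate number as a block the Crot difference was the same size, 0.45 ± 0.07, and limma's adjusted p was 0.061, so the call did not hold. Taken number by number, Crot was higher in the KO liver of all 5 pairs, by 0.29, 0.50, 0.29, 0.54 and 0.63 on the log2 scale. Since the genotypes did not overlap, any pairing of these livers would give that sign in all 5, so the sign adds nothing. The call was also lost without WT replicate 2 or 4 or KO replicate 2, 3, 4 or 5, at log2 differences of 0.42 to 0.46 (limma adjusted p = 0.0633 to 0.0968). For this probe set the direction was the same in all 19 settings run, and the call held in 10 of them.

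**Figure D1:**
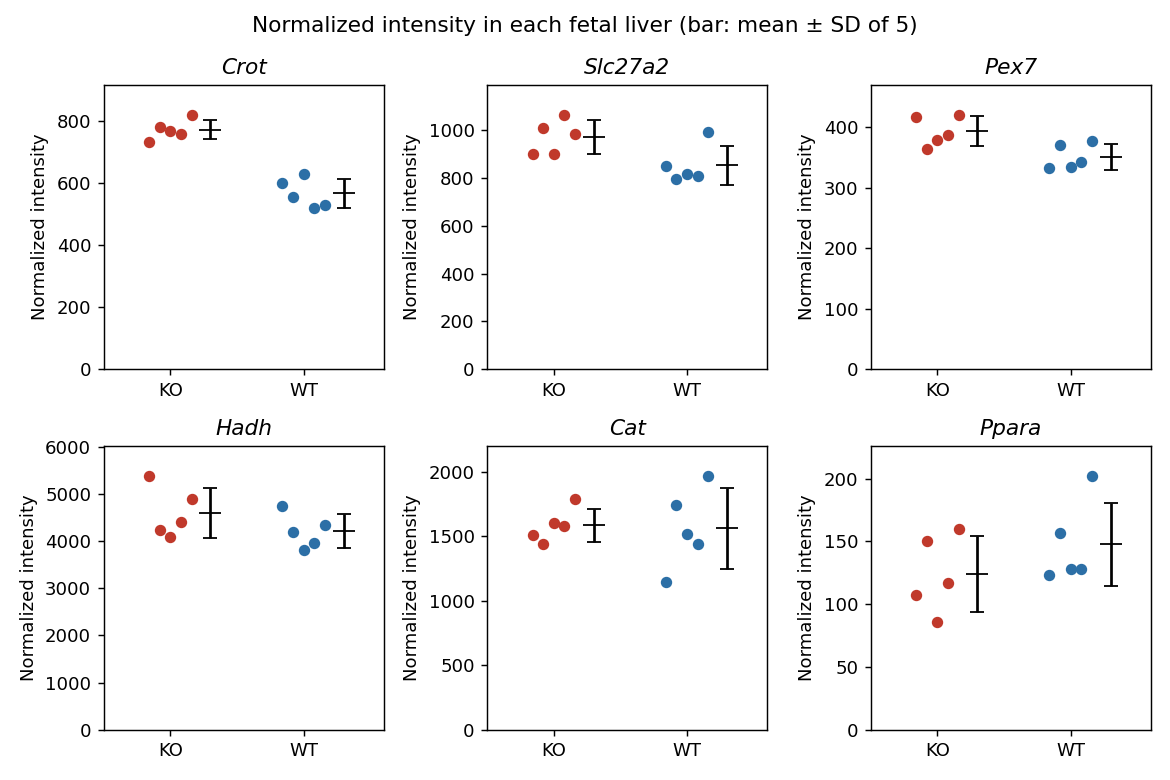
Normalized intensity (vertical axes, from 0) of 6 members in each KO and WT liver; points are livers and the bars beside them the mean ± SD of 5. Crot points of KO livers, from 733, sit above all WT points, up to 628, and the genotypes overlap for the other 5 genes.

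A second Crot probe set was dim in all livers and was left out by the filter. It read -9.39, 20.8, -8.96, -4.27 and 9.43 in KO livers and 16.9, -2.97, 28.2, 26 and 20.5 in WT livers, where the array median was 22.7. Its means were 1.53 ± 13.2 in KO livers and 17.7 ± 12.4 in WT livers (SD, n = 5 each), lower in KO livers, with 4 of 10 values at or below 0. Fitted with no filter, an alternative chosen after seeing the data, it gave a log2 difference of -6.07 ± 4.57, a size set by the floor put under values at or below 0 (limma adjusted p = 0.782). With values under 16 set to 16 it gave -0.31 ± 0.24 (limma adjusted p = 0.732). The difference in Crot therefore rests on 1 of 2 probe sets.

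In the settings used here Crot had the lowest p of the genes that were higher in KO livers, which was so in 6 of the 19 settings; its rank was 16 with the replicate block and 25 without WT replicate 5. It was followed by Nfkbia, Ero1a, Serp1 and Serpina10, which did not pass (limma adjusted p = 0.0517 to 0.0635). By Pearson's r over the 10 livers, the genes whose log2 values ran most like those of Crot were Vapa (r = 0.938), Tmem167 (0.937), Selenos (0.936), Pkp4 (0.931) and Ldha (0.922). The livers share their genotype in these values, and the r of deviations from the genotype means was 0.66, 0.47, 0.64, 0.39 and 0.42 for the same genes. None of the 5 is on the list of members and none passed the test, with log2 differences of 0.15 to 0.27 (limma adjusted p = 0.0725 to 0.277).

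Among the 41 members Crot was called higher. It was also the 1 gene called higher of all 12741 tested in these settings (0.00785%). The list was centred on Crot, so that share is Crot itself and gives no comparison. No member was called lower (0.0628% of all genes were), and with the replicate number as a block 0 members were called, against 0.165% of all genes. Of the members' 70 tested probe sets the bright one of Crot was called, against 11 of 27022 over the array, or 0.0407%. With values under 16 set to 16, Crot was again the one member called, against 0.328% of all genes. By their brightest probe sets, 3 members (7.32%) were higher in KO livers at an unadjusted p under 0.05, against 5.31% of all genes. At that p 0 were lower, against 5.02%. With the block 5 were higher, against 6.09% of all genes, and 0 lower, against 5.65%. Of the members' 70 tested probe sets 5 had such a p without the block, against 2276 of 27022 over the array. Crot was also the single member whose genotypes did not overlap, against 1.37% of all genes with KO livers above and 1.46% with KO livers below. All 41 genes passed the filter on dim probe sets, with 70 of their 77 probe sets, and 36 had a log2 difference within 0.2 of 0. The median absolute difference was 0.08 for members and 0.17 for all genes tested. These medians are not of like intensity. Of all probe sets tested 17.1% held a value set to the floor, and no member's brightest probe set did.

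**Figure D2:**
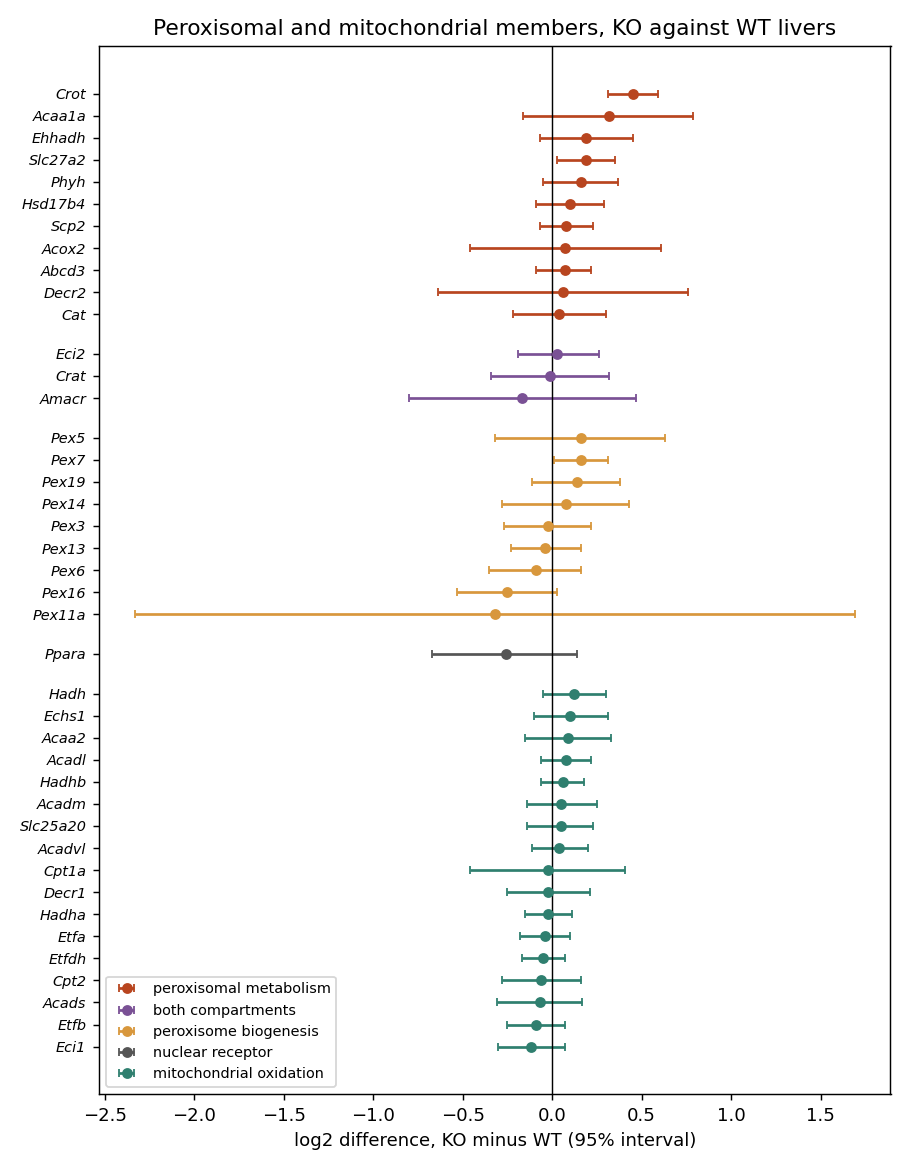
The log2 difference, KO minus WT (horizontal axis), of the brightest probe set of each of the 41 members, with its 95% interval from limma, grouped by where the proteins work. The intervals of Crot, Slc27a2 and Pex7 lie above 0, and those of the other 38 include 0.

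All 11 genes of peroxisomal metabolism had positive log2 differences, from 0.04 to 0.45, with a median of 0.10. Of all genes tested 50.8% were positive and the median was 0.00. The members were chosen with earlier results of these data known, so their shared sign is no test. Of 36 tested other peroxisomal genes, 16 were positive and 20 negative (median -0.02). Of the 10 genes other than Crot, 7 kept a positive sign in all 19 settings, and Acox2, Cat and Decr2 were negative in some. These signs are those of the brightest probe set of each gene. Other tested probe sets gave -0.06 for Acaa1a, -0.24 for Cat, -0.03, 0.01 and 0.12 for Scp2, and 0.10 for Hsd17b4. Most were small: 9 of the 11 lay within 0.2 of 0, and Crot alone was called. The median deviation of the 11 genes in a liver ran from -0.05 to 0.23 on the log2 scale in KO livers and from -0.14 to 0.12 in WT livers, so the genotypes overlapped. KO replicate 1 was the lowest KO liver and WT replicate 5 the highest WT liver.

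Slc27a2, a very-long-chain acyl-CoA synthetase that activates fatty acids at the peroxisome and endoplasmic reticulum, read 903, 1009, 901, 1063 and 986 in KO livers. In WT livers it read 849, 797, 819, 808 and 994. WT replicate 5 stood within the KO range and the other 4 WT livers below it. The log2 difference was 0.19 ± 0.07 (95% interval 0.03 to 0.35), which did not pass over all genes (limma adjusted p = 0.452, exact permutation p = 0.0476).

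The enzymes that carry out the cycle itself follow in the order of the reaction. Acox2, the oxidase for branched chains and bile acid intermediates, ran from 220 to 679 in KO livers and from 257 to 463 in WT livers, with a log2 difference of 0.07 ± 0.25. Its highest value, 679, was that of KO replicate 5. Ehhadh, the bifunctional hydratase and dehydrogenase that is a classic PPAR alpha target, ran from 113 to 138 in KO livers and from 95.8 to 123 in WT livers, a log2 difference of 0.19 ± 0.12. It was higher in the KO liver of all 5 numbered pairs, by 0.05 to 0.48, and limma's adjusted p with the replicate block was 0.683. Hsd17b4, the second bifunctional enzyme, averaged 380 ± 48.3 in KO livers and 353 ± 15.1 in WT livers (SD, n = 5 each), a log2 difference of 0.10 ± 0.09.

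Acaa1a, the thiolase of the last step, had a log2 difference of 0.32 ± 0.22 at its brightest probe set and -0.06 ± 0.15 at the other. At the first, KO livers ran from 159 to 246 and WT livers from 106 to 235. The annotation pairs 2 further probe sets with both Acaa1a and Acaa1b, and these were not used. Scp2, which encodes a sterol carrier and a thiolase for branched chains, was the brightest of the group, at 2083 to 2686 in KO livers and 2108 to 2460 in WT livers (0.08 ± 0.07, limma adjusted p = 0.738). Decr2, the peroxisomal reductase for polyunsaturated chains, was the dimmest, at 26.1 to 75.4 in KO livers and 33.3 to 71.4 in WT livers, with a 95% interval of -0.64 to 0.76 around a log2 difference of 0.06.

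Cat, which encodes the catalase that removes the hydrogen peroxide, read 1509, 1438, 1605, 1575 and 1787 in KO livers at its brightest probe set. In WT livers it read 1141, 1741, 1516, 1440 and 1965, a wider range that encloses the KO livers (log2 difference 0.04 ± 0.12, limma adjusted p = 0.926). At its other probe set Cat averaged 1396 ± 150 in KO livers and 1669 ± 374 in WT livers (SD, n = 5 each), with a difference of the other sign, -0.24 ± 0.13 (limma adjusted p = 0.681). Phyh, which starts alpha-oxidation of phytanic acid, averaged 866 ± 119 in KO livers and 773 ± 83.6 in WT livers (SD, n = 5 each), a log2 difference of 0.16 ± 0.10. Abcd3, a transporter of the peroxisomal membrane, had a difference of 0.07 ± 0.07.

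**Figure D3:**
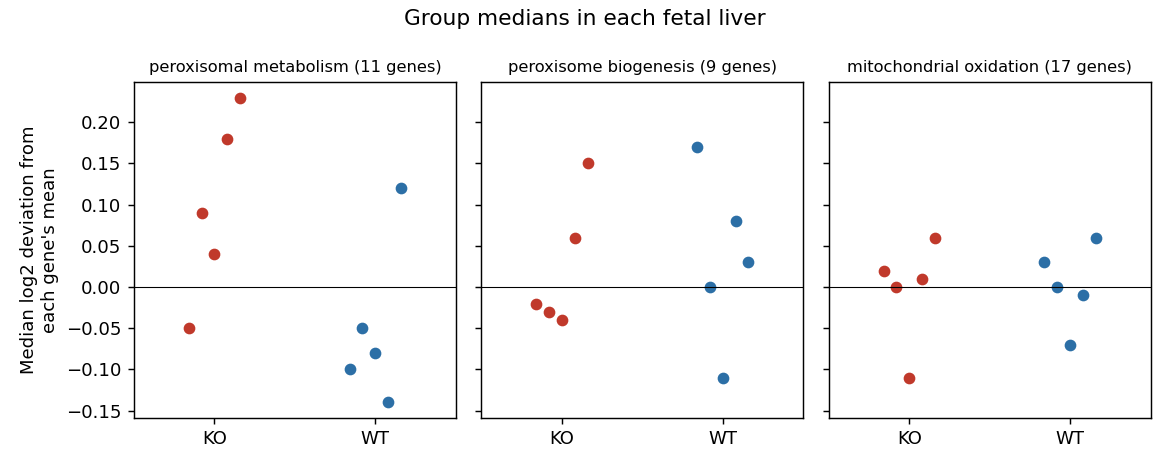
Median over a group's genes of the log2 deviation from each gene's mean over the 10 livers (vertical axis), with 1 point per KO or WT liver. KO livers span -0.05 to 0.23 and WT livers -0.14 to 0.12 for peroxisomal metabolism, and the genotypes overlap in all 3 groups.

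The 3 genes whose proteins work in both organelles gave no called difference. Crat, the carnitine acetyltransferase that is the relative of CROT for the shortest chains, read 128, 112, 171, 132 and 128 in KO livers and 142, 113, 167, 106 and 150 in WT livers. Its log2 difference was -0.01 ± 0.15, with a 95% interval of -0.34 to 0.32. Its other tested probe sets were dimmer, at 0.44 ± 0.38 and -0.27 ± 0.63. Eci2, an isomerase for unsaturated chains, ran from 359 to 574 in KO livers and from 451 to 490 in WT livers (0.03 ± 0.10, limma adjusted p = 0.928). Amacr, the racemase for branched chains, ran from 117 to 359 in KO livers and from 163 to 353 in WT livers (-0.17 ± 0.29, limma adjusted p = 0.854). KO replicate 2 was the lowest liver for both Eci2 and Amacr, as it was for Acox2.

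Of the 9 genes that build the peroxisome, 4 had positive and 5 negative differences, with a median of -0.02, and none was called. Pex7, the import receptor for proteins with an N-terminal signal such as the thiolase and PHYH, read 418, 365, 379, 387 and 420 in KO livers. In WT livers it read 332, 371, 334, 343 and 378, and WT replicates 2 and 5 lay within the KO range. The log2 difference was 0.16 ± 0.07 (95% interval 0.01 to 0.31), which did not pass over all genes (limma adjusted p = 0.544, exact permutation p = 0.0317). Pex5, the receptor for the C-terminal signal, had a difference of 0.16 ± 0.22 at one probe set, with -0.11 at the other.

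The docking proteins Pex13 and Pex14 differed by -0.04 ± 0.09 (limma adjusted p = 0.91 for Pex13) and 0.08 ± 0.16. Pex13 ran from 267 to 325 in KO livers and from 265 to 338 in WT livers. Pex3, Pex16 and Pex19, which place proteins in the peroxisomal membrane, differed by -0.02 ± 0.11, -0.25 ± 0.13 and 0.14 ± 0.11. Other tested probe sets gave 0.09 ± 0.13 for Pex3, and 0.26 ± 0.19 and 0.93 ± 0.79 for Pex19. Pex16 averaged 138 ± 19.1 in KO livers and 163 ± 21 in WT livers (SD, n = 5 each), and its 95% interval of -0.53 to 0.03 includes 0. Pex6, an ATPase that recycles the import receptors, had 5 tested probe sets that did not point one way, at -0.28, -0.24, -0.09, 0.28 and 0.47. Pex11a, which promotes peroxisome division, was near the array median at 2.4 to 42.7 in KO livers and 3.41 to 53.9 in WT livers, and its interval of -2.33 to 1.69 sets no useful limit.

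The 17 mitochondrial genes stayed close to 0, with 8 positive and 9 negative differences, a median of -0.02 and a range of -0.12 to 0.12. None was called and none of their brightest probe sets had an unadjusted p under 0.05. At the brightest probe sets all 17 lay within 0.2 of 0 on the log2 scale, against 55.6% of all genes tested. That share is not of like intensity. Of all probe sets tested 17.1% held a value set to the floor, and none of these 17 did. The 95% intervals of the 17 lay between -0.46 and 0.41.

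At the entry step, Cpt1a, which controls the import of fatty acids, ran from 109 to 246 in KO livers and from 138 to 188 in WT livers, a log2 difference of -0.02 ± 0.20. Its interval, -0.46 to 0.41, was the widest of the mitochondrial genes at their brightest probe sets. Other tested Cpt1a probe sets gave 0.11 ± 0.28 and 0.32 ± 0.35. Slc25a20, the carnitine carrier, and Cpt2, which remakes the acyl-CoA inside, differed by 0.05 ± 0.08 and -0.06 ± 0.10. The acyl-CoA dehydrogenases for long, medium and short chains, Acadvl, Acadl, Acadm and Acads, differed by 0.04, 0.08, 0.05 and -0.07, with standard errors of 0.07 to 0.11. Etfa, Etfb and Etfdh, which pass their electrons to the respiratory chain, differed by -0.04 ± 0.07, -0.09 ± 0.07 and -0.05 ± 0.06.

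Hadh, the dehydrogenase of the third step, was the brightest member, at 5379, 4227, 4080, 4412 and 4902 in KO livers and 4743, 4194, 3822, 3960 and 4350 in WT livers. The genotypes overlapped, and the log2 difference of 0.12 ± 0.08 did not pass (limma adjusted p = 0.735). The other Hadh probe sets pointed the same way, at 0.12 ± 0.07 and 0.21 ± 0.07 (limma adjusted p = 0.684 and 0.329). Unadjusted, limma's p for these was 0.0835 and 0.0089. Within numbered pairs the difference at the brightest probe set was 0.18, 0.01, 0.09, 0.16 and 0.17, positive in all 5. With the replicate number as a block limma's p for that probe set was 0.0207, or 0.409 adjusted.

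Hadha and Hadhb, the subunits of the trifunctional protein that acts on long chains, differed by -0.02 ± 0.06 and 0.06 ± 0.06. Hadhb ran from 1948 to 2323 in KO livers and from 1924 to 2149 in WT livers (limma adjusted p = 0.75). Hadha had one of the narrowest intervals, -0.15 to 0.11. Echs1 and Acaa2, the hydratase and the thiolase, differed by 0.10 ± 0.10 and 0.09 ± 0.11, and Decr1 and Eci1, which handle unsaturated chains, by -0.02 ± 0.11 and -0.12 ± 0.09.

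**Figure D4:**
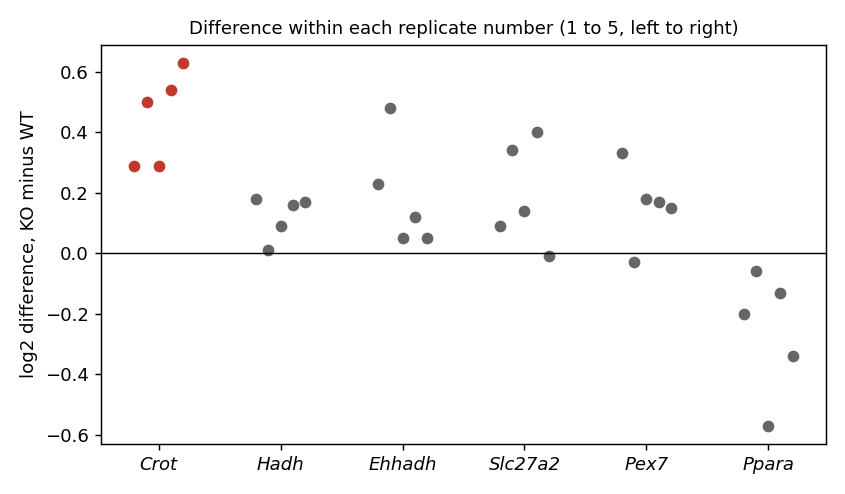
The log2 difference, KO minus WT (vertical axis), between livers with the same replicate number, for 6 members, with 1 point per number from 1 to 5. All 5 Crot points lie at 0.29 or above, and any pairing of these livers would make them positive. Those of Hadh and Ehhadh are positive and smaller in each pair, and the 5 Ppara points are negative. Slc27a2 and Pex7 each have 1 negative point.

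Ppara read 107, 150, 86.1, 117 and 160 in KO livers at its brightest probe set and 123, 157, 128, 128 and 202 in WT livers. The genotypes overlapped, and the log2 difference was -0.26 ± 0.19 (95% interval -0.67 to 0.14, limma adjusted p = 0.737). It was negative in all 5 numbered pairs, from -0.57 to -0.06, and with the replicate number as a block limma's adjusted p was 0.544. The other tested probe sets of Ppara were dimmer and positive, at 0.59 ± 0.50 and 0.13 ± 0.33.

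For 17 members more than 1 probe set was tested. In 8 of these the probe sets had the same sign, and in 9 they did not, Cat, Acaa1a and Ppara among them.

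Other genes of these routes were taken from lists of known pathway genes. Of 36 tested other peroxisomal genes, 16 were positive and 20 negative, with a median of -0.02, and none was called. At an unadjusted p under 0.05, 2 were higher and 3 lower in KO livers, where 5.31% of all genes were higher and 5.02% lower. Of 22 tested other mitochondrial fatty acid and ketone body genes, 9 were positive and 13 negative (median -0.10), with none called, 2 higher and 3 lower at that p. Of 19 tested PPAR receptors, coregulators and PPAR alpha targets, 8 were positive and 11 negative (median -0.12), with 0 called and 0 at that p in either direction.

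The genes of these lists with an unadjusted p under 0.01 were the following. Idh1, a cytosolic and peroxisomal enzyme that makes NADPH, read 1065, 1035, 1060, 905 and 1187 in KO livers and 829, 846, 783, 814 and 996 in WT livers (log2 difference 0.30 ± 0.08, limma adjusted p = 0.213). Gstk1, a glutathione transferase of peroxisomes and mitochondria, read 69.2 to 87.7 in KO livers and 104 to 128 in WT livers, with no overlap (-0.51 ± 0.13, limma adjusted p = 0.182). Nudt19, a peroxisomal CoA diphosphatase, was also without overlap, at 582 to 672 in KO livers and 686 to 737 in WT livers (-0.19 ± 0.06, limma adjusted p = 0.286). Of all genes tested, 1.46% had every KO liver below every WT liver. Dhrs4, a carbonyl reductase, differed by -0.22 ± 0.07 (limma adjusted p = 0.298), and Acsl5, an acyl-CoA synthetase, by -0.26 ± 0.08 (limma adjusted p = 0.289). These genes did not pass over all genes tested.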

How the data were processed

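From each liver 1 µg of total RNA was amplified in one cycle and labelled with biotin for Affymetrix arrays, per the labels' protocols. The authors deposited linear intensities, 1 value for each array and probe set, of which 21.5% are at or below 0. Their software and scaling: not given in the sources used here. Array medians ran from 19.47 to 25.01. Precision is limited by the number of arrays.

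Titles gave the genotype and replicate number, and 1 fetal liver made each replicate. Intensities were quantile-normalized, values at or below 0 were set to the lowest positive value (0.000978), and log2 was taken. Probe sets under the 40th percentile of mean log2 over all 10 arrays were left out, which kept 27022. The comparison of KO with WT used R 4.3.3 and limma 3.58.1 (eBayes with an intensity trend after lmFit). The p-values are two-sided and were adjusted by Benjamini and Hochberg's method across every probe set tested, and a gene under 0.05 is "called". Each gene was represented by its brightest tested probe set, by mean log2. Means and SDs are of normalized linear intensities, and a fold is the antilog of a log2 difference. In the annotation 34945 probe sets had 1 gene symbol, 932 several and 9160 none, and only the first kind was used. The method was tested on simulated data. Promoters came from RefSeq. Figures were drawn with matplotlib 3.10.9.

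Pairing was checked by correlating deviations from the genotype means. Over 11250 probe sets with a mean intensity over 100, a minimum chosen after seeing the data, same-numbered livers correlated at 0.204 to 0.439 and livers of different numbers at 0.192 at most. There all 5 KO and all 5 WT livers correlated best with the liver of their own number. Over all 27022 probe sets tested, same-numbered livers correlated at 0.001 to 0.031, over 0.1 in 0 of 5 pairs, and different numbers at 0.021 at most. Of these probe sets 17.1% held a value set to the floor, far below the rest on the log2 scale, so these correlations cannot decide the matter. Correlations over 0.1 were seen only with that minimum, and the labels do not say what the numbers share. The value with the block is therefore printed beside each call it changes.

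The members and gene lists were chosen with earlier results of these data known, so the call of Crot is no independent evidence. Named with tests were members with an unadjusted p under 0.05 or no overlap and the 2 brightest of each group, other pathway genes with p under 0.01, and 5 genes most like Crot. The alternatives covered normalization, floor, filter, variance trend, the replicate block, probe sets and each liver left out.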

Additional observations from a re-analysis of the deposited data

Results flagged for a closer look

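Among the 41 members and both genotypes, 82 groups of 5 livers were tested with Dixon's ratio (critical value 0.71), and 4 held a liver apart from the rest, where chance gives about 1 in 20 groups, or 4.1. KO replicate 5 was high for Echs1 (659, nearest KO liver 549) and for Acadm (1342, nearest 1094). KO replicate 3 was low for Etfb (1063, nearest 1270). WT replicate 5 was high for Slc27a2 (994, nearest WT liver 849).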

How the results depend on the processing

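At its bright probe set Crot was called in 10 of 19 settings, at log2 differences of 0.42 to 0.52 and limma adjusted p-values of 0.0148 to 0.282. It was not called on deposited intensities (0.44, adjusted p = 0.0719), without the variance trend (0.45, adjusted p = 0.282) or with the replicate block (0.45, adjusted p = 0.061). With 1 liver left out the difference was 0.42 to 0.49. Its other probe set gave -6.07 with no filter and -0.31 with a floor of 16, alternatives chosen after seeing the data. With deposited intensities, no trend or the block 0 members were called, and leaving out 1 liver gave 0 to 1 called members. No member other than Crot and 0 other pathway genes were called in any of the 19 settings. On the whole array 11 probe sets were called, 29 with a filter at the 60th percentile, 30 without a filter, 57 with a floor of 16, 57 with an offset of 32, 2 without the trend and 28 with the replicate block. With 1 liver left out the count was 5 to 102, 5 without KO replicate 2, 7 without KO replicate 4 and 102 without WT replicate 5 (77 higher and 25 lower, against 1 and 10). The split was 13 higher and 15 lower with the block, 29 and 28 with the floor of 16, and 28 and 29 with the offset.

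Of the 40 members other than Crot, 20 changed sign in some setting. Cat was -0.004 without KO replicate 5, -0.07 without WT replicate 1 (up to 0.13 with 1 liver left out) and -0.24 at its other probe set. With 1 liver left out, Eci2 was -0.03 (without KO replicate 5) to 0.14, Amacr -0.34 to 0.08 (without KO replicate 2) and Pex13 -0.08 to 0.01 (without WT replicate 1), and Pex13 was 0.03 with median scaling. Another probe set gave -0.03 for Scp2, and 0.59 and 0.13 for Ppara. The median of the mitochondrial genes was 0.06 with median scaling, which moved the median of all probe sets by 0.065, 0.04 over all probe sets of a gene and -0.02 to 0.05 with 1 liver left out. That of the biogenesis genes was -0.05 to 0.1 and that of peroxisomal metabolism 0.07 to 0.18 with 1 liver left out. The causes were not tested. Members other than the 11 given with a p were judged as values against the spread of WT livers, a choice made after seeing how often values near 0 changed sign. Dim probe sets, such as those of Pex11a and Decr2, limit what can be seen.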
